A study of Mus musculus with 8 samples.

Results

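The Notch pathway and the pre-T-cell receptor were followed through 10 genes: the receptors Notch1, Notch2 and Notch3, the Deltex genes Dtx1 and Dtx2, the target genes Hes1 and Nrarp, the nuclear genes Rbpj and Maml1, and Ptcra, the pre-T-cell receptor alpha chain. Members were the probe sets whose single symbol in the annotation of the array was one of these names, which gave 20 of the 45037 probe sets that are not controls. All 10 genes were represented. The RNA came from double-positive (CD4+CD8+) thymocytes, an immature T-cell stage, of mice aged 4 to 5 weeks, and each of the 8 samples was measured on 1 array. All mice carried Cd4-Cre, which puts the recombinase under the control of the Cd4 gene, and all were Tcra-/-, so their thymocytes cannot form the mature alpha-beta receptor. The 4 arrays titled Control are labelled c-Myb sufficient and the 4 titled Mutant are labelled c-Myb deficient. The source names run against this, since they give Control as Mybf/f and Mutant as Mybf/w. Groups are therefore called Control and Mutant as titled, and every difference is Mutant minus Control. Cells had been enriched with an antibody against CD4 on magnetic columns. The titles number the arrays of a group as biological replicates. Whether each was made from 1 mouse or from pooled mice is not stated in the labels. P-values therefore set the group difference against the spread between these samples within the groups.

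Notch receptors are cut when a ligand on a neighbouring cell binds them, and the freed intracellular part joins the DNA-binding protein RBPJ and a Mastermind coactivator to switch on genes such as Hes1, Dtx1, Nrarp and, in thymocytes, Ptcra and Notch1 and Notch3 themselves. In the thymus the pathway is needed for T-cell commitment. It is active in the double-negative stage and falls off after the pre-T-cell receptor, in which Ptcra pairs with the rearranged beta chain, has moved the cells to the double-positive stage.

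The sequences just upstream of Dtx1, Notch1 and Ptcra are shown because these genes gave the largest rise, the difference nearest to the threshold and no detectable change. Each run covers 250 bases before the start of the gene, in the gene's direction, from RefSeq on GRCm38.p6, and 9 of the 10 genes had an entry. Both strands were searched for TGGGAA, the core bound by RBPJ, for CANNTG, the E-box bound by E proteins, and for AACNG, the core bound by Myb. Capitals mark their matches.
Dtx1, chr5:120711670-120711919, minus strand: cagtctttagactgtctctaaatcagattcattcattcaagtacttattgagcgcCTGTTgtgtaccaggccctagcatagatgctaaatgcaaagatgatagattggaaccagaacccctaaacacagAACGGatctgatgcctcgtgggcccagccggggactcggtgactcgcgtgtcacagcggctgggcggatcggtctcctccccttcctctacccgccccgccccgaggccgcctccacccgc
Notch1, chr2:26503823-26504072, minus strand: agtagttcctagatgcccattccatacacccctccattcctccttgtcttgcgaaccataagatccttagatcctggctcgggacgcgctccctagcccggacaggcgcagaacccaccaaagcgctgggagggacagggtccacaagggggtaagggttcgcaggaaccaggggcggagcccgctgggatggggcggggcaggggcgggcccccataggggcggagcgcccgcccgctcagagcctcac
Ptcra, chr17:46763713-46763962, minus strand: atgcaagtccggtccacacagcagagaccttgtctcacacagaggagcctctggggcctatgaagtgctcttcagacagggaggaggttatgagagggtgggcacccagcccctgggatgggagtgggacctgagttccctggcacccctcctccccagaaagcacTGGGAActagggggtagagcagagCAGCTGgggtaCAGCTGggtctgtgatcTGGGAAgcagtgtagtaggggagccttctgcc
The Ptcra run held 2 RBPJ cores and 2 E-boxes, and no Myb core. The Dtx1 run held 2 Myb cores and neither of the others, and the Notch1 run held no match at all. Of the 32851 upstream runs in the table, 21.6% held an RBPJ core, 66.2% an E-box and 74.2% a Myb core. A match of letters is a description and not a binding site, and regulatory elements outside these windows were not examined.

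The arrays were bright for defining genes of double-positive cells. Mean signals in Control and Mutant arrays were 10714 and 11073 for Cd8a, 3961 and 3704 for Cd4, and 11396 and 10824 for Rag1. Of the 9 double-positive markers tested, 0 rose and 3 fell: Arpp21 from a mean of 4898 to 2872 (log2 difference -0.77, limma adjusted p = 0.000632), Rag2 from 4078 to 3075 (-0.41, adjusted p = 0.00865) and Cd1d1 from 1841 to 1261 (-0.54, adjusted p = 0.0148). Over all 9941 tested genes, each by its brightest probe set, 4.16% rose and 3.08% fell. Myb itself was not lower on Mutant arrays. Its dimmest probe set, 1422734_a_at, read 4183.2 to 5158.2 on Control and 5458.0 to 6395.8 on Mutant arrays, a log2 difference of 0.36 (limma adjusted p = 0.0327). The brighter 1421317_x_at and 1450194_a_at differed by 0.28 (adjusted p = 0.0845) and 0.04 (adjusted p = 0.816), and neither passed. Whether these probes fall inside the floxed segment is unknown here, so the level does not check the genotype. Xist, which is transcribed from the inactive X chromosome, read 4358.5 in Control 1 and 4128.7 to 5735.5 in the Mutant arrays, against 23.4 to 36.7 in Control 2, 3 and 4. The Y-linked gene Kdm5d read 7.2 in Control 1 and 551.3 to 914.2 on the other Control arrays. Sex therefore moves with the groups apart from Control 1. Values of Control 1 are given where arrays are listed one by one. They are not given for results stated only as means, ranges or differences.

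Of the 20 member probe sets, 18 passed the filter on dim signals, a signal above 33.8 on at least 4 of the 8 arrays, and each of the 10 genes had at least 1 of them. Of the 18, 1 rose and 0 fell in limma at an adjusted p under 0.05, and 17 did not pass. Over all 22599 tested probe sets 5.82% passed in either direction (3.14% up, 2.68% down). At an unadjusted limma p under 0.05 there were 5 of 18 member probe sets, against 20.8% of all probe sets. The median log2 difference was 0.08 over the 18 and 0.01 over all. All Mutant arrays lay above all Control arrays for 2 member probe sets and below them for 1, while over all probe sets these shares were 7.32% and 7%, together 14.3%. The probe sets of a gene share its transcripts and are not independent of one another.

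**Figure D1:**
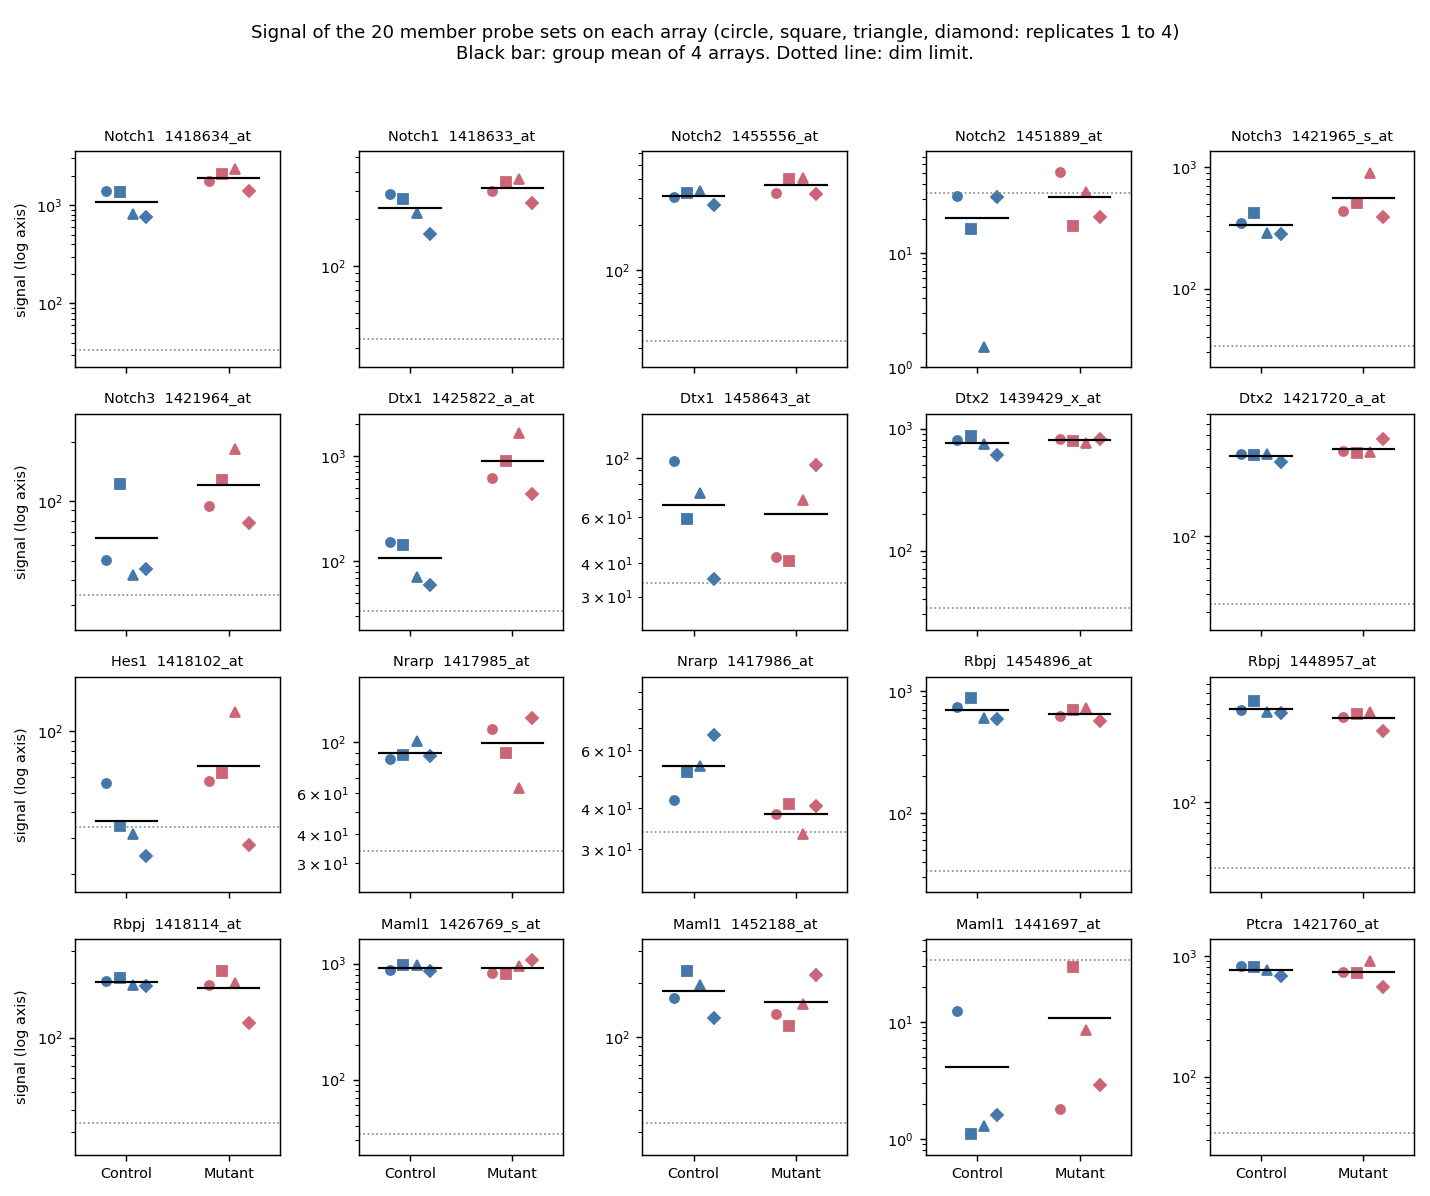
Signal (log axis) of all 20 member probe sets on each of the 8 arrays, Control in blue and Mutant in red, with the replicate number given by the marker, the mean of 4 arrays as a black bar and the dim limit of 33.8 as a dotted line. Only Dtx1 1425822_a_at shows a wide gap between the groups, with Control arrays at 59.8 to 154.0 and Mutant arrays at 436.3 to 1667.7.

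Dtx1 encodes Deltex1, a ubiquitin ligase that binds the intracellular part of Notch and is itself switched on by Notch. On probe set 1425822_a_at its signal was 154.0, 142.4, 70.9 and 59.8 on Control arrays 1 to 4 and 618.5, 891.0, 1667.7 and 436.3 on Mutant arrays 1 to 4. Every Mutant array was above every Control array, and within each group the highest array was more than double the lowest. The means were 107 ± 48.3 and 903 ± 543 (SD, n = 4 each). The log2 difference was 2.82 ± 0.39 (SE, limma adjusted p = 0.00236), a 7.05-fold rise with a 95% interval of 3.89 to 12.8. It passed without each of the 8 arrays in turn, at 2.47 to 3.10. Control 1, the Control array with high Xist, had the highest Control value, and the lowest Mutant value was still above it. With the Xist class in the model, a fit that rests on Control 1 as the only Control array of its class, the difference was 2.26 ± 0.60 and did not pass (adjusted p = 0.258). In that fit 8 of the 22599 probe sets passed in all.

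The other Dtx1 probe set, 1458643_at, did not follow. It read 97.6, 58.7, 73.5 and 35.0 on Control arrays and 42.5, 41.0, 69.3 and 94.0 on Mutant arrays. The groups overlapped fully, and the log2 difference was -0.08 ± 0.28 (limma adjusted p = 0.910), with an interval of 0.613 to 1.47-fold. The 2 probe sets were designed from different source sequences of the gene, and which part of the transcript each one reads is unknown here. The rise is thus a rise of the sequence read by 1425822_a_at.

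Dtx2 encodes a related ligase. Its probe set 1439429_x_at, of a class that can also bind similar transcripts, read 802.9, 875.6, 754.0 and 607.0 on Control arrays against 821.5, 785.4, 760.6 and 825.1 on Mutant arrays. Its log2 difference was 0.08 ± 0.12, an interval of 0.886 to 1.26-fold. Probe set 1421720_a_at read 374.1, 364.3, 371.9 and 329.8 in Control and 392.4, 378.1, 383.2 and 469.2 on Mutant arrays. All 4 Mutant arrays lay above the Control arrays there, but the gap was only from 374.1 to 378.1, and the difference of 0.16 ± 0.11 did not pass (limma adjusted p = 0.448). Both Dtx2 intervals end well below the rise measured for Dtx1, although the difference between the 2 genes was not itself tested.

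Notch1, the receptor on which early T-cell development depends, had the next smallest p among the members. Probe set 1418634_at read 1385.7, 1354.3, 810.3 and 762.9 on Control arrays and 1773.2, 2057.3, 2352.1 and 1383.6 on Mutant arrays. The groups met at a single point, since Mutant 4 lay just below Control 1. The means were 1078 ± 338 and 1892 ± 413 (SD, n = 4 each), and the log2 difference was 0.83 ± 0.22 (SE), a 1.78-fold difference with an interval of 1.27 to 2.49. Its limma adjusted p of 0.0542 just missed the threshold over probe sets. It was 0.0360 when each gene was represented by its brightest probe set, and 0.0436, 0.0404 and 0.0304 without Control 1, Control 2 or Mutant 4. These were the only 3 of the 8 fits leaving out 1 array that passed, and in the others it reached 0.159. With the Xist class in the model the difference was 0.42 ± 0.33 (adjusted p = 0.850). The other Notch1 probe set, 1418633_at, pointed the same way. It read 287.7, 268.7, 216.7 and 159.9 in Control against 301.4, 346.0, 359.9 and 251.0 on Mutant arrays, a difference of 0.43 ± 0.18 (adjusted p = 0.220).

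Notch3, a receptor and target of the pathway in thymocytes before the double-positive stage, had positive differences on both probe sets, and neither passed. Probe set 1421965_s_at read 350.8, 418.3, 287.2 and 280.4 in Control and 437.3, 505.8, 903.2 and 388.3 on Mutant arrays. Mutant 3 stood well above the other Mutant arrays, and Mutant 4 lay below Control 2. The log2 difference was 0.65 ± 0.24 (limma adjusted p = 0.142), and it was 0.40 without Mutant 3. The dimmer probe set 1421964_at read 50.4, 121.9, 42.6 and 45.4 against 94.3, 128.7, 183.8 and 77.7. Here Control 2 lay far above the other Control arrays, the difference was 0.80 ± 0.31 (adjusted p = 0.171), and it passed at 1.08 without Control 2 (adjusted p = 0.0387). That was the only 1 of the 8 fits leaving out an array that passed, and adjusted p reached 0.374 in the others.

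Notch2, a receptor better known from B cells and myeloid cells, differed little. Probe set 1455556_at read 305.4, 325.6, 336.4 and 271.7 in Control and 326.5, 403.5, 409.4 and 321.0 on Mutant arrays, a log2 difference of 0.22 ± 0.13 (limma adjusted p = 0.355) with an interval of 0.963 to 1.41-fold. Probe set 1451889_at was dim, at 1.5 to 31.9 in Control and 17.4 to 51.8 on Mutant arrays, and was not tested. The plot of differences with their intervals sets the 3 receptors beside the other members.

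**Figure D2:**
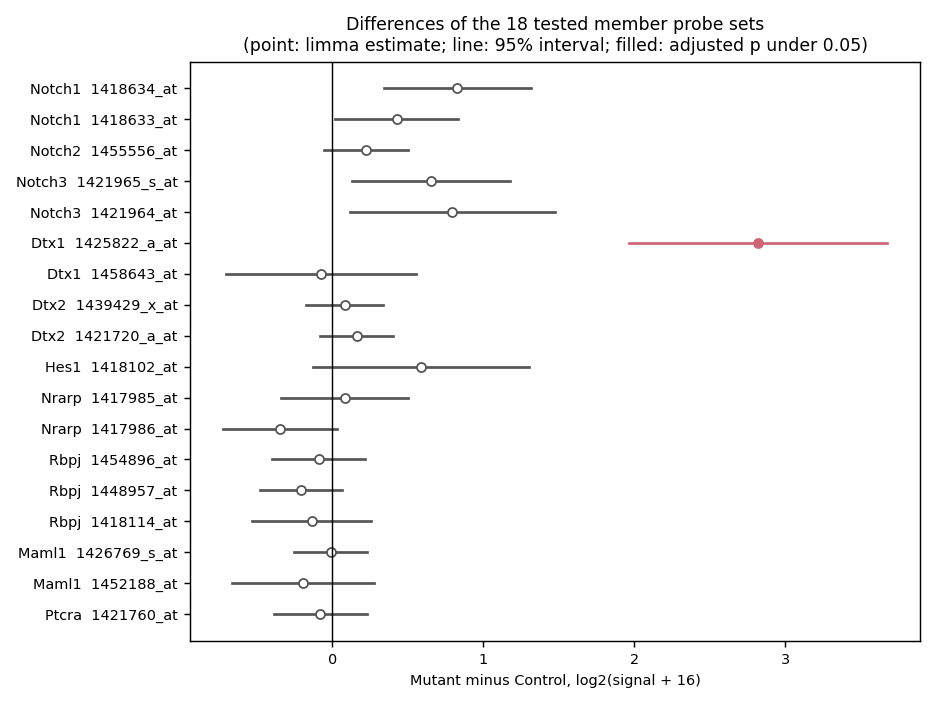
Mutant minus Control difference in log2(signal + 16) for the 18 tested member probe sets, with the limma estimate as a point and its 95% interval as a line; the filled point passed at an adjusted p under 0.05. Dtx1 1425822_a_at lies at 2.82, apart from all other members, whose estimates run from -0.35 to 0.83.

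Hes1, a transcriptional repressor and direct Notch target, was near the dim limit. It read 55.8, 34.3, 31.2 and 24.3 on Control arrays and 56.8, 62.6, 123.9 and 27.5 on Mutant arrays. Mutant 4 lay among the lower Control arrays, while Mutant 1 and Control 1 were nearly equal. The log2 difference of 0.59 ± 0.32 did not pass (limma adjusted p = 0.345), and its interval of 0.914 to 2.46-fold leaves a doubling within reach. It was 0.30 without Mutant 3 and 0.86 without Mutant 4.

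Nrarp encodes a small ankyrin-repeat protein that is induced by Notch and limits it. Probe set 1417985_at read 84.4, 87.7, 100.9 and 86.7 in Control and 113.4, 89.8, 63.6 and 127.5 on Mutant arrays, with a log2 difference of 0.08 ± 0.19 (limma adjusted p = 0.855). Probe set 1417986_at pointed down instead. It read 42.3, 51.3, 53.6 and 66.6 in Control against 38.3, 41.1, 33.3 and 40.4 on Mutant arrays. All 4 Mutant arrays lay below the Control arrays, but these signals are close to the dim limit and the difference of -0.35 ± 0.17 did not pass (adjusted p = 0.280).

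Rbpj, the DNA-binding partner of the cut receptor, had small negative differences on all 3 probe sets. The brightest, 1454896_at, read 733.6, 869.0, 593.4 and 590.6 in Control and 618.7, 691.1, 719.6 and 562.7 on Mutant arrays, a log2 difference of -0.09 ± 0.14 (limma adjusted p = 0.771). Probe sets 1448957_at and 1418114_at differed by -0.21 ± 0.12 and -0.14 ± 0.18, and their groups overlapped too. The sign of 2 of them rested on a single array: 1418114_at came to 0.05 without Mutant 4, and 1454896_at to 0.02 without Control 2.

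Maml1, a Mastermind coactivator, was level. Probe set 1426769_s_at read 884.6, 981.2, 976.5 and 860.5 in Control and 829.9, 818.3, 959.4 and 1081.4 on Mutant arrays. Its log2 difference was -0.01 ± 0.11 (limma adjusted p = 0.965), with an interval of 0.840 to 1.17-fold. Probe set 1452188_at differed by -0.20 ± 0.21, and 1441697_at was below the dim limit on all 8 arrays.

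Ptcra was well above the dim limit on every array and showed no detectable difference. Its only probe set, 1421760_at, read 817.6, 801.8, 765.3 and 684.8 on Control arrays and 740.3, 726.6, 913.2 and 556.1 on Mutant arrays. The Mutant values spanned the Control values on both sides. The means were 767 ± 59.2 and 734 ± 146 (SD, n = 4 each), and the log2 difference was -0.08 ± 0.14 (limma adjusted p = 0.796). The interval ran from 0.764 to 1.17-fold, so a change of the size of that of Dtx1 lies far outside it.

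Within the groups, several members rose and fell together from array to array. Mutant 3 was the highest and Mutant 4 the lowest Mutant array for 10 of the 18 tested probe sets: both of Notch1 and of Notch3, the rising one of Dtx1, 2 of Rbpj, and those of Notch2, Hes1 and Ptcra. Over all tested probe sets this order held for 18.1%. Control 4 was the lowest Control array for 15 of the 18, against 28.7% of all. Nrarp ran the other way, with Mutant 3 lowest on both probe sets. These patterns were picked after the values were seen, each rests on 1 or 2 arrays, and the shares over all probe sets show that the arrays also differed widely outside the pathway.

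**Figure D3:**
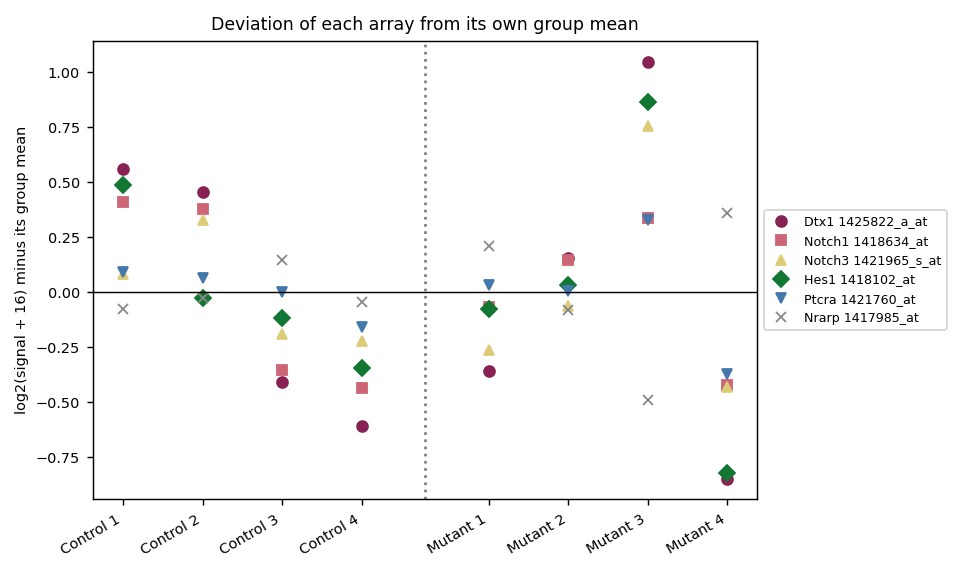
Deviation of log2(signal + 16) on each array from the mean of its own group, for 6 member probe sets with 4 arrays in each group. Dtx1, Notch1, Notch3, Hes1 and Ptcra are all highest in Mutant 3 and lowest in Mutant 4 among the Mutant arrays, while Nrarp is lowest in Mutant 3.

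The rest of the pathway was followed through 78 other genes in 8 lists, each gene by its brightest probe set past the filter. Of the 56 that could be tested, 2 rose, 3 fell and 51 did not pass, against 7.24% of all 9941 genes (4.16% up, 3.08% down). The median log2 difference was 0.02 over the 56 and 0.02 over all genes. Ligands, which thymic stroma presents to thymocytes, were mostly too dim to test. Of the 7 other receptors and ligands on the array 1 could be tested, Jag2, which read 58.3 ± 34.0 and 61.3 ± 7.66 (SD, n = 4 each).

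Enzymes that modify or cut the receptor did not pass. Of 8 tested genes of glycosylation and ligand handling, 0 passed, with a median of 0.15. The brightest, Pofut1, which attaches fucose to Notch, read 369 ± 37.8 and 491 ± 38.5, a log2 difference of 0.40 ± 0.11 (limma adjusted p = 0.0638). It passed in 2 of 18 alternative fits, at 0.0346 with 1 probe set per gene. Its other tested probe sets differed by 0.19 (1456323_at, adjusted p = 0.659) and by -0.17 in the opposite direction (1450137_at, adjusted p = 0.672), and neither passed. Of 8 genes of cleavage 0 passed, with a median of 0.20. The gamma-secretase subunit gene Psenen differed by -0.10 ± 0.09. Among 12 cofactors and corepressors 0 passed, with a median of -0.05, and the deacetylase gene Hdac1 differed by 0.01 ± 0.07.

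Of 8 genes of receptor turnover and inhibition, 1 fell and 7 did not pass. Cbl, a ubiquitin ligase that also restrains T-cell receptor signalling, read 4087.4, 4356.6, 4408.2 and 3730.7 in Control and 2377.4, 2498.4, 2393.5 and 2617.7 on Mutant arrays. The groups were far apart and tight, and the log2 difference was -0.74 ± 0.07 (limma adjusted p = 0.000505). Its other probe sets fell by 0.77 and by 1.04. Of the Hes and Hey genes only Hes6 could be tested, at -0.28 ± 0.09 (adjusted p = 0.110), and the other 5 on the array were too dim.

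Among 9 tested genes that respond to Notch in T-cell progenitors, 2 rose, 1 fell and 6 did not pass. Il2ra, the interleukin-2 receptor alpha chain and a marker of the double-negative stage, read 78.2, 192.6, 30.6 and 31.0 in Control and 603.9, 736.7, 1101.9 and 570.1 on Mutant arrays. Every Mutant array was above every Control array, by a log2 difference of 3.20 ± 0.43 (limma adjusted p = 0.00214). Igf1r, the receptor of insulin-like growth factor, read 427.1, 532.0, 230.7 and 257.7 in Control and 715.7, 1114.5, 1218.5 and 757.2 on Mutant arrays, a difference of 1.40 ± 0.26 (adjusted p = 0.0127; 0.0509 without Mutant 2). Ccnd3, a cyclin needed for division after the pre-T-cell receptor signal, went the opposite way. It read 6814.9, 6088.0, 6032.5 and 5373.1 in Control and 4000.8, 2986.5, 1649.1 and 3548.2 on Mutant arrays. Its difference was -1.06 ± 0.22 (adjusted p = 0.0206), which did not pass without Control 1, Control 3 or Mutant 2 (adjusted p = 0.0575, 0.0637 and 0.0606). The median log2 difference of these 9 genes, which do not include Dtx1, was 0.02, and it was 0.02 over all genes.

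Of 9 tested partners of the pre-T-cell receptor 1 fell and 8 did not pass. Cd247, the zeta chain, read 4419 ± 113 and 3707 ± 172 (SD, n = 4 each), a log2 difference of -0.25 ± 0.06 (limma adjusted p = 0.0369). It did not pass in any fit that left out 1 array (adjusted p = 0.0581 to 0.110). Its other tested probe sets differed by -0.24 (1452539_a_at, adjusted p = 0.388) and by 0.45 in the opposite direction (1420716_at, adjusted p = 0.355), and neither passed.

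**Figure D4:**
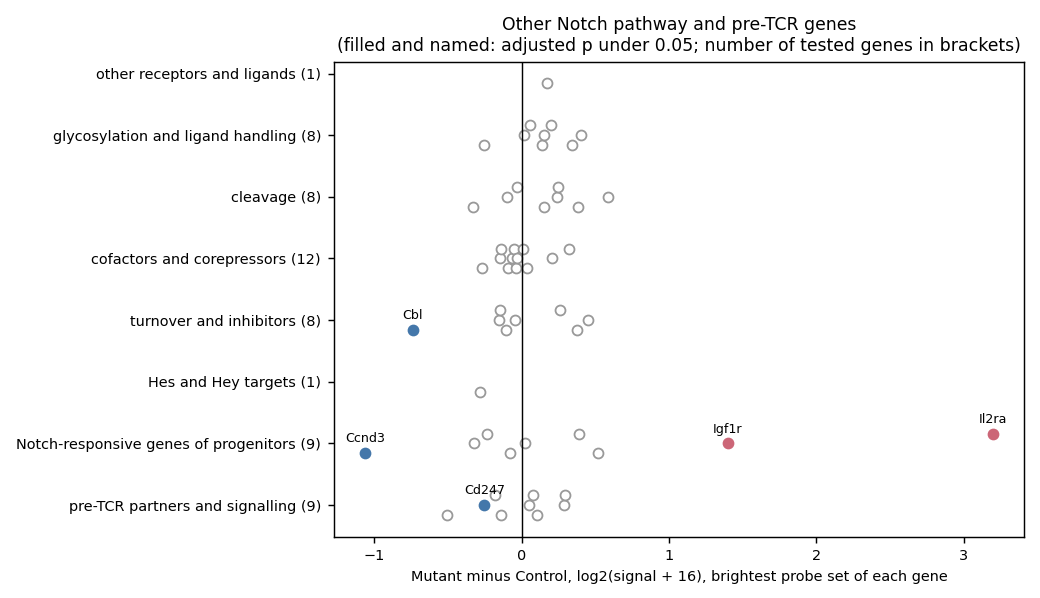
Mutant minus Control difference in log2(signal + 16) of the 56 tested genes of the 8 lists, 1 point per gene, with the genes past an adjusted p of 0.05 filled and named. Il2ra (3.20) and Igf1r (1.40) lie to the right, and Ccnd3 (-1.06), Cbl (-0.74) and Cd247 (-0.25) to the left. The other 51 genes did not pass and run from -0.50 (Syk) to 0.59 (Aph1b), some of them farther from 0 than Cd247.

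Of 8 markers of the double-negative stage 5 could be tested, of which Il2ra rose, Gfi1 fell by 1.19 and 3 did not pass. Over all 9941 tested genes 4.16% rose and 3.08% fell. Mean signals on Control and Mutant arrays were 34.8 and 52.8 for Kit, 134.9 and 113 for Cd44 and 86.6 and 125.6 for Il7r. The dim genes Hhex, Lyl1 and Erg had means of 15.4 and 26.7, 11.1 and 30.3, and 2.98 and 11.1, and Erg was below the dim limit on all arrays. The Mutant mean was the higher one for 6 of the 8 genes, but among these only Il2ra had groups that did not overlap. The share of such genes over the whole array was not computed. Hhex, Lyl1 and Erg had group means below the dim limit and were not tested. Summed over the 8, most of it Gfi1, signals were 1971 to 2499 on Control and 1833 to 2177 on Mutant arrays. Without Gfi1, singled out after its values were seen, the sums were 300.0 to 522.2 and 878.8 to 1565, most of the Mutant sums being Il2ra. Of 6 markers of gamma-delta and natural killer cells, Ncr1 and Zbtb16 were below the dim limit on all arrays, and Gzma, the only one tested, rose. The sum of the 6, most of it Gzma, was 2016 to 2487 in Control and 3062 to 4239 on Mutant arrays. Without Gzma the sums overlapped, at 34.1 to 142.2 in Control and 92.9 to 173.3 on Mutant arrays. The 5 B cell markers summed to 7114 to 7348 and 7626 to 8573, most of it Ighm, with Cd79a below the dim limit on all arrays. The difference of Ighm did not pass (limma adjusted p = 0.0946). Without Ighm the sums overlapped, at 359.9 to 615.9 in Control and 495.1 to 678.6 on Mutant arrays. The part of these cells in the Dtx1 result was not tested. In RNA from bulk cells, more cells that express a gene and more RNA per cell cannot be told apart.

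The genes whose pattern over the 8 arrays was nearest to that of Dtx1 1425822_a_at were Itgb7, Trim26 and Tesc. Nearness was the root mean square difference of log2 values centred on each gene, over 9940 other genes, and came to 0.29, 0.33 and 0.37. Values were centred over both groups together, so only genes with a similarly large rise could lie near. Itgb7, an integrin beta chain, went from a mean of 112 to 735, Trim26 from 59.1 to 627.6 and Tesc from 82.9 to 777.7.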

How the data were processed

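The deposited values are linear intensities, 1 signal for each probe set on each one-colour MOE430 2.0 array, which the authors made with the Affymetrix software GCOS per the submitters' processing notes. For that software, neither version nor settings are given in the sources used here. All 8 arrays had a 2% trimmed mean of 250.0 and were thus scaled alike, which removes differences in total RNA per cell. Array medians were 30 to 37.9. Arrays correlated at 0.974 to 0.984 within groups and at 0.964 to 0.979 between them. No detection calls, scan dates or batches were at hand, and the number of arrays limits the precision.

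Signals were converted to log2(signal + 16), which understates changes of dim genes. Of 45101 probe sets 64 controls were left out. Those above the median of the table, 33.8, on at least 4 arrays were tested in R 4.3.3 by a two-sided limma 3.58.1 fit (lmFit, eBayes with trend). P-values were adjusted by Benjamini-Hochberg over 22599 probe sets at a threshold of 0.05. All adjusted p-values come from limma. On simulated data for Mutant against Control over 22599 probe sets, 2% of changes of 1.25-fold, 20% of 1.5-fold, 68% of 2-fold and 96% of 4-fold were recovered, and 6 of 99 calls were false. The simulation held 50 changes of each size and independent noise for each probe set. It had no sex difference and no shared array effects, so these rates need not hold for the real calls. The members and lists were chosen with earlier results of these data known. Of the lists, the changed genes (at most 3) or else the brightest tested gene are named. Some of the listed genes are not reported here. Alternatives changed the pseudocount, filter, normalization, variance model, array weights and unit of the test, added the replicate number or Xist class (cut at a signal of 1000), or left out each array. Plots and sequence searches used Python 3.11.15, pandas 2.3.3 and matplotlib 3.10.9.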

Additional observations from a re-analysis of the deposited data

Results flagged for a closer look

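A single array stood apart from its group in 3 of the 40 groups of 4 arrays examined, where about 1 in 20 does so by chance. Notch3 1421964_at read 121.9 in Control 2 against 42.6 to 50.4 on the other Control arrays. Dtx2 1421720_a_at read 469.2 in Mutant 4 against 378.1 to 392.4 on the other Mutant arrays. Maml1 1441697_at read 12.4 in Control 1 against 1.1 to 1.6, all of them below the dim limit.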

How the results depend on the processing

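The rise of Dtx1 1425822_a_at passed in 17 of 18 alternative fits, at log2 differences of 2.26 to 3.10. The exception was the Xist class as a covariate, where 8 probe sets, 0 members and 0 genes of the lists passed. Array weights gave 2631 changed probe sets in place of 1316, 4 higher members (Dtx1, Notch1 and both Notch3 probe sets) and 13 list genes in place of 5. With 1 probe set per gene 2 members were higher (Dtx1 and Notch1). The replicate numbers of the titles did not pair the samples: deviations of same-numbered arrays correlated at -0.37 to 0.33, and 1 of 8 arrays correlated best with its own number. The replicate block gave 1081 changed probe sets and 2 higher members, with Notch1 1418634_at at an adjusted p of 0.0336. Leaving out each array in turn gave 561 to 1493 changed probe sets, 1 to 3 higher members and 2 to 6 changed list genes, and no member fell in any alternative. Notch1 1418634_at kept a positive difference throughout, at 0.42 to 0.99, and passed in 6 of 18 alternatives. Signals near the dim limit limit Hes1, Nrarp and the dimmer Notch3 probe set.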

Other observations

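Some genes of the lists changed on a probe set that was not their brightest, singled out after the values were seen. Syk, a kinase that acts downstream of the pre-T-cell receptor, differed by -0.50 on its brightest probe set (limma adjusted p = 0.0768) and fell by 0.86 on 1418262_at (adjusted p = 0.00894), where Control arrays read 181.2 to 241.2 and Mutant arrays 81.7 to 121.0. Hes6, a relative of Hes1, fell by 0.49 on 1452021_a_at (adjusted p = 0.0164), from 586.9 to 655.7 in Control to 406.6 to 488.3 on Mutant arrays. Lcp2, the SLP-76 adaptor, differed by 0.29 on its brightest probe set (limma adjusted p = 0.166) and rose by 0.48 on 1418642_at (adjusted p = 0.0392). Ccnd3 fell on all 3 of its tested probe sets (by 1.06, 1.27 and 1.07) and Igf1r rose on all 4 of its tested probe sets (by 1.40, 1.04, 1.10 and 1.13).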
